A study of Homo sapiens with 4 samples.

Results

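Succinate dehydrogenase (complex II), the cytochrome bc1 complex (complex III) and ATP synthase (complex V) were examined through 35 nuclear genes, 28 for subunits and 7 for assembly factors and the ATP synthase inhibitor. The genes were chosen by name, with the symbols of the hg19 period, and all 35 were found among the 26506 genes of the deposited tables. RNA sequencing was performed in HeyC2 and SKOV3 cells, both established from ovarian cancers, with 1 library from cells given the pCMV6/TET1 expression plasmid (labelled TET1 overexpressed) and 1 from cells given the empty plasmid (labelled Wild-type, control). Both plasmids were introduced by lipofectamine, and the cells of all 4 libraries were kept in Geneticin, so the controls had also gone through transfection and selection. Whether the selected cells were a pool or a clone is not given in the sources used here. With 1 library per condition, no difference below has a replicate check, and no test between conditions was made.

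Complex II oxidizes succinate to fumarate, a step of the citric acid cycle, and passes the electrons to ubiquinone. Complex III carries electrons from ubiquinol to cytochrome c and moves protons across the inner mitochondrial membrane. ATP synthase lets the protons flow back through the ring of c subunits in its membrane part, Fo, and the turning of this ring drives ATP formation in its catalytic part, F1. All subunits of complex II are encoded in the nucleus, whereas cytochrome b of complex III and subunits a and A6L of ATP synthase are encoded by mitochondrial DNA, and these mitochondrial genes are not analysed here.

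The FPKM values of each TET1 library carry a constant factor, 3.23 for HeyC2 and 1.35 for SKOV3, which makes GAPDH equal in TET1 and control. Levels are given below as FPKM (fragments per kilobase of transcript, scaled to the mapped fragments of the library) after division by this constant, and a relative log2 change is log2((TET1 + 1)/(control + 1)) minus the median of all genes tested in the cell line, those with a mean of at least 1 FPKM. Where a pair of levels is given for a line, the control comes first and TET1 second. Both lines were tabulated separately by the authors, and the RNA was bulk, so fewer cells of a kind and less RNA per cell cannot be told apart. The depth estimated from the spacing of low values was about 6589958 to 7273445 fragments per library. TET1 was at 0.20 and 0.52 FPKM in HeyC2 and at 0.43 and 1.80 in SKOV3. These levels are low, and in HeyC2 TET1 did not pass the filter of a mean of at least 1 FPKM. After the division GAPDH was at 5417 and 1675 FPKM in HeyC2 and at 2248 and 1671 in SKOV3. The epithelial keratins KRT8 and KRT18 and the Müllerian factor PAX8 were at 74.6 FPKM or more in all 4 libraries, MUC16 was at 0.05 FPKM or less, WT1 was at 0.53 FPKM in SKOV3 TET1 and listed at 0 in the other libraries, and the leukocyte gene PTPRC was at 0.28 FPKM or less. Other markers moved with TET1. The keratin KRT7 was at 289.7 and 1125 FPKM in HeyC2 and at 1537 and 21.96 in SKOV3, and KRT19 at 0.62 and 1.59 in HeyC2 and at 255 and 0.46 in SKOV3. In SKOV3 the epithelial cadherin CDH1 went the other way, at 2.24 and 6.30 FPKM, and the epithelial surface protein EPCAM was at 15.4 and 16.1, while in HeyC2 both were at 0.38 FPKM or less. Mesothelin (MSLN) was at 46.5 and 77.5 FPKM in HeyC2 and at 10.3 and 0.08 in SKOV3, and FOLR1 at 0.17 FPKM and 0 in HeyC2 and at 58.2 and 55.4 in SKOV3. Of 8 markers of leukocytes, endothelium and fibroblasts, 2 passed the filter in each line. These were at least 1.5-fold higher in TET1, beside 12.5% of all genes tested in HeyC2 and 20.7% in SKOV3. In HeyC2 they were CDH5 (18.9 and 94.6 FPKM) and COL1A1 (0.57 and 1.76). In SKOV3 they were COL1A1 (0.32 and 27.7 FPKM) and COL1A2 (0.13 and 2.12). COL1A1 and COL1A2 were under 1 FPKM in the controls, so they could pass the filter only through a higher TET1 level. CD3E was listed at 0 throughout, and PECAM1 and DCN were at 0.09 FPKM or less. The part of these markers in the results below was not tested.

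The 35 genes were abundant. Their median level was 63.9 and 62.7 FPKM in HeyC2 and 73.6 and 63.3 in SKOV3, while all genes at 1 FPKM or more had medians of 10.9 in both HeyC2 libraries and of 11.7 and 11.9 in SKOV3. Between 33 and 35 of them lay above that all-gene median in each library. The exception in SKOV3 that stood farthest from the others was UQCRH of complex III, at about 1 FPKM in both SKOV3 libraries and above 200 FPKM in both HeyC2 libraries.

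**Figure D1:**
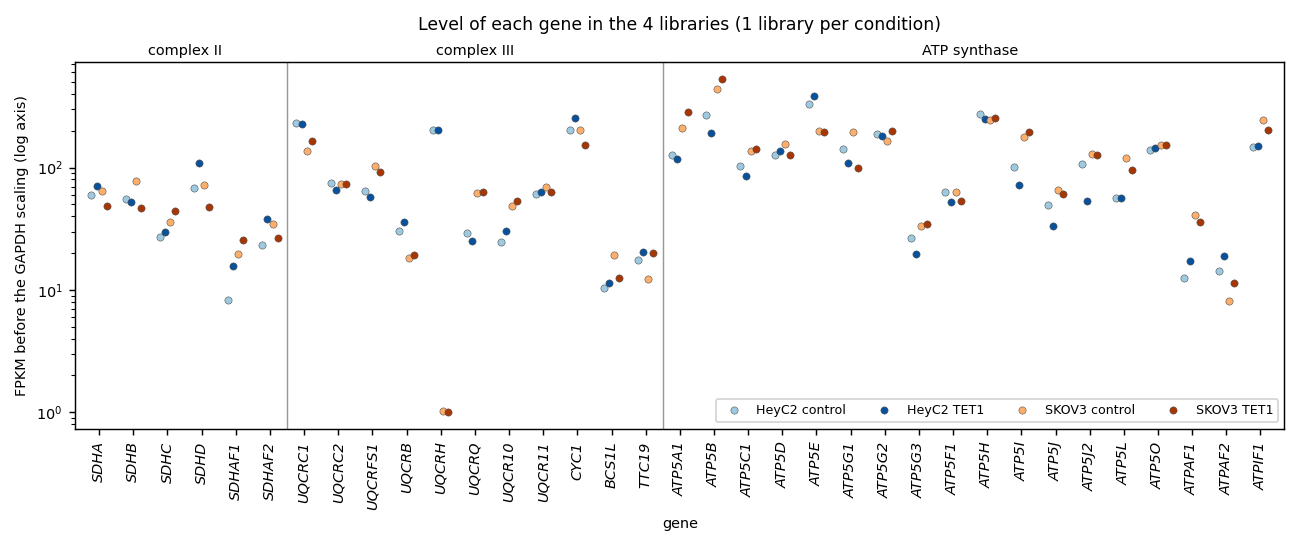
Level of each of the 35 genes (x axis) in the 4 libraries, as FPKM before the GAPDH scaling on a log axis, with 1 point per library. Most genes lie within a few-fold of each other across the libraries, and UQCRH in SKOV3 (1.0 FPKM in both libraries) lies far below all others.

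In HeyC2 TET1, 3 of the 35 genes exceeded the control by 1.5-fold or more relative to the all-gene median and 2 were at least 1.5-fold lower, beside 12.5% and 9.17% of the 11894 genes tested. In SKOV3, 0 of 35 were higher and 6 were lower, beside 20.7% and 18.2% of 13013 genes. Over the whole set the median relative log2 change came to -0.06 in HeyC2 and to -0.21 in SKOV3. Abundant genes as a whole were lower in SKOV3 TET1, with a median of -0.24 over the 4435 genes with a mean of at least 20 FPKM. Set against the running median of genes of like level, the median of the 35 genes in SKOV3 was 0.03, and that in HeyC2 was 0.00. Under that centring 3 genes were lower and 2 higher in SKOV3, in place of 6 and 0. The shift of the whole set in SKOV3 was thus of the size seen for other abundant genes.

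Within the set, the complexes had different values. The subunits of complex II had a median relative log2 change of 0.12 in HeyC2 and -0.68 in SKOV3, those of complex III -0.06 and -0.20, and those of ATP synthase -0.30 and -0.20. Relative to genes of like level, the SKOV3 medians were -0.37 for complex II, 0.00 for complex III and 0.17 for ATP synthase, of whose 15 subunits 11 then lay above, so the sign for ATP synthase in SKOV3 turned with the centring. In HeyC2 they were 0.15, 0.00 and -0.27. Of the 10 genes past 1.5-fold in either line, SDHD alone was past it in both, and it was higher in HeyC2 and lower in SKOV3. Across the 35 genes, which are not independent replicates, the changes in both lines had a Pearson r of -0.01 and a Spearman rho of -0.08. The same overlap and correlations over all genes are not given here. The little agreement between the lines is therefore not read as a trait of these 35 genes.

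**Figure D2:**
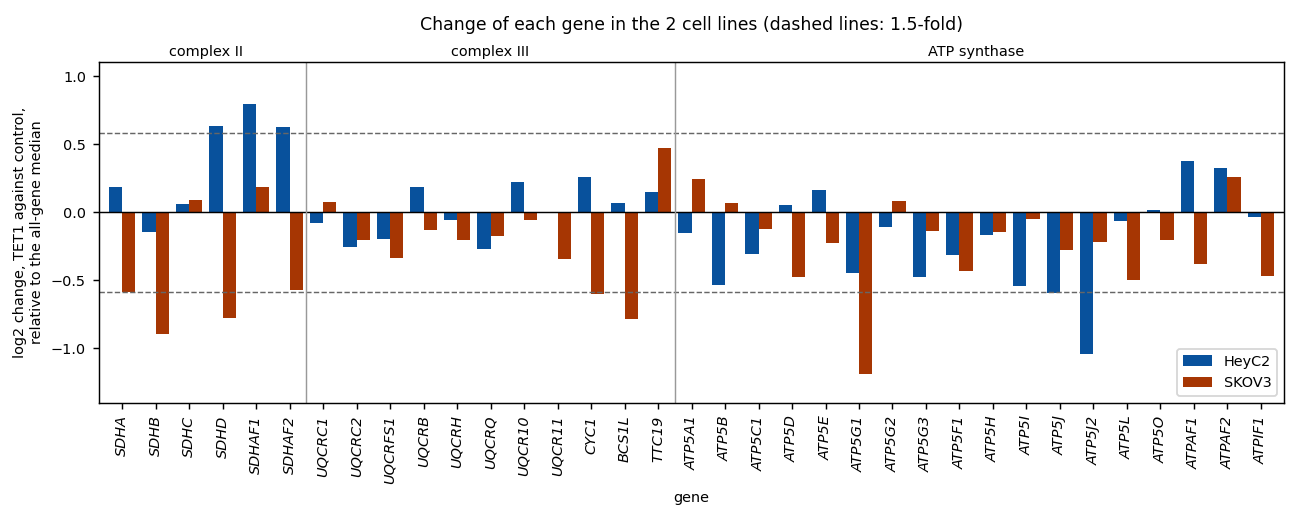
Relative log2 change (TET1 against control, minus the all-gene median) of each of the 35 genes in HeyC2 (blue) and SKOV3 (brown), with dashed lines at 1.5-fold. Complex II genes point up in HeyC2 and down in SKOV3 for SDHD and SDHAF2, ATP5J2 is the lowest bar in HeyC2 (-1.04), and ATP5G1 is the lowest in SKOV3 (-1.19).

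Of the catalytic subunits of complex II, SDHA, the flavoprotein that binds succinate, was at 59.9 and 71.1 FPKM in HeyC2 and at 63.8 and 48.3 in SKOV3. SDHB, the iron-sulfur subunit, was at 55.7 and 52.4 FPKM in HeyC2 and at 77.5 and 47.2 in SKOV3. Both were thus lower in TET1 than in the control in SKOV3, with relative log2 changes of -0.59 for SDHA, just past 1.5-fold, and -0.90 for SDHB. In HeyC2 their relative changes were 0.18 and -0.14.

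The membrane anchors SDHC and SDHD hold the heme and, with SDHB, the ubiquinone site. SDHD (GRCh37, chromosome 11, 111957548 to 111990739) was at 67.7 and 109.9 FPKM in HeyC2 and at 72.3 and 47.9 in SKOV3. Its control levels were close in both lines, and its TET1 levels lay on opposite sides of them. The relative log2 change of SDHD was 0.63 in HeyC2 and -0.78 in SKOV3, with counting errors of about 0.08 and 0.09 from the estimated fragments, which leave out any difference between cultures. SDHC, the other anchor, was at 27.2 and 29.6 FPKM in HeyC2 and at 35.9 and 43.9 in SKOV3, and its relative changes of 0.06 and 0.09 were the smallest of the 4 subunits in SKOV3.

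These values altered the balance of complex II mRNAs within a library, a measure that no scaling constant affects. SDHC was at 45.3% of SDHA in the HeyC2 control and 41.6% in HeyC2 TET1, but at 56.3% in control SKOV3 cells and 90.8% in SKOV3 TET1. SDHD was at 113% of SDHA in both control libraries, at 155% in HeyC2 TET1 and at 99.2% in SKOV3 TET1. The 4 subunits lay closest together in SKOV3 TET1, with the highest, SDHA, at 1.101 times the lowest, SDHC, against ratios of 2.16 to 3.72 in the other libraries.

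Of the assembly factors of complex II, SDHAF1, which helps place iron-sulfur clusters in SDHB, was at 8.25 and 15.7 FPKM in HeyC2 and at 19.5 and 25.6 in SKOV3. Its relative log2 change of 0.79 in HeyC2 was the highest of the 35 genes there, with about 59 and 102 fragments behind it and a counting error of 0.24, and it was 0.19 in SKOV3. SDHAF2, which is needed to attach FAD to SDHA, was at 23.5 and 38.3 FPKM in HeyC2 and at 34.8 and 26.5 in SKOV3. SDHAF2 thus had the same pattern as SDHD, with 0.62 in HeyC2 and -0.57 in SKOV3, the latter just under 1.5-fold. Of the values past 1.5-fold in complex II, those of SDHAF1 and SDHAF2 in HeyC2 and of SDHB in SKOV3 were past it under all 12 settings tried, and that of SDHA in SKOV3 under 5 of 12. That of SDHD was past it under 11 of 12 in HeyC2, where its lowest value was 0.58, and under 9 of 12 in SKOV3, where the value nearest 0 was -0.48. SDHA reads can also be shared with its near-identical copies SDHAP1 and SDHAP2, whose levels were 5.55 and 17.5 FPKM (SDHAP1) and 9.51 and 26.0 FPKM (SDHAP2) in HeyC2, and 7 and 6.68 (SDHAP1) and 5.93 and 10.8 (SDHAP2) in SKOV3. A further copy, SDHAP3, was at 0.13 and 0.63 FPKM in HeyC2 and at 0.43 and 1.84 in SKOV3.

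In complex III, the core subunits UQCRC1 and UQCRC2, which support the catalytic subunits on the matrix side, had relative log2 changes of -0.08 and -0.25 in HeyC2 and of 0.07 and -0.21 in SKOV3. UQCRC1 was at 232 and 228 FPKM in HeyC2 and at 136 and 164 in SKOV3, and UQCRC2 at 74.7 and 65.1 in HeyC2 and at 73.6 and 72.8 in SKOV3. The Rieske iron-sulfur protein UQCRFS1 was at 63.9 and 57.8 FPKM in HeyC2 and at 102 and 92.5 in SKOV3, with relative log2 changes of -0.20 and -0.33. CYC1, the cytochrome c1 that hands electrons to cytochrome c, was the subunit farthest from its control in SKOV3. It was at 204 and 253 FPKM in HeyC2 and at 203 and 153 in SKOV3, with relative log2 changes of 0.26 and -0.60. The value in SKOV3 was past 1.5-fold in 6 of 12 settings and was -0.22 relative to genes of like level.

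The small subunits of complex III had relative log2 changes between -0.27 and 0.22 in HeyC2 and between -0.34 and -0.06 in SKOV3. UQCRQ, which helps form the ubiquinone-binding region, was at 29.3 and 25.1 FPKM in HeyC2 and at 62.6 and 63.3 in SKOV3, and its change of -0.27 was the lowest of the complex in HeyC2. UQCR10 was at 24.7 and 30.2 FPKM in HeyC2 and at 48.3 and 53.2 in SKOV3. UQCR11 was at 60.4 and 62.7 FPKM in HeyC2 and at 69.6 and 62.7 in SKOV3, and UQCRB at 30.5 and 36.2 in HeyC2 and at 18.3 and 19.2 in SKOV3. None of these reached 1.5-fold. Both assembly factors lay farther from their control in SKOV3 than in HeyC2. BCS1L, the AAA protein that inserts the Rieske protein, was at 10.3 and 11.3 FPKM in HeyC2 and at 19.3 and 12.4 in SKOV3, with relative changes of 0.07 and -0.79. TTC19, which clears fragments of the Rieske protein, was at 17.6 and 20.4 FPKM in HeyC2 and at 12.3 and 20.02 in SKOV3, and its 0.47 was the highest value of the 35 genes in SKOV3.

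UQCRH encodes the hinge protein, an acidic subunit near the cytochrome c docking site. It was at 204 and 203 FPKM in HeyC2 and at 1.02 and 1.003 in SKOV3. The SKOV3 values correspond to about 3 fragments in each library, against about 574 and 525 in HeyC2. The HeyC2 control was 199.9-fold higher than the SKOV3 control (95% interval of the ratio 62.8 to 898, from counting error only), with levels taken from separately made tables. Of the 705 genes at 100 FPKM or more in the HeyC2 control, 12 (1.70%) were at 2 FPKM or less in the SKOV3 control, UQCRH among them. UQCRH was at 88.1% and 89.3% of UQCRC1 in the HeyC2 libraries and at 0.75% and 0.61% in the SKOV3 libraries, while the other subunits of complex III were at 18.3 FPKM or more in SKOV3. Its near-identical copy UQCRHL was listed at 0 in both controls and was at 0.41 FPKM in both TET1 libraries. UQCRH was thus low in both SKOV3 libraries, and about 3 fragments in each are too few to compare its level between them.

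UQCRH (GRCh37, chromosome 1, 46769370 to 46782448, plus strand) lies head to head with LRRC41 (46726868 to 46769288, minus strand), which encodes a leucine-rich repeat protein of a ubiquitin ligase complex, and 81 bases separate both genes. These neighbours were examined after the values of UQCRH had been seen. LRRC41 was at 30.1 and 31.1 FPKM in HeyC2 and at 3.09 and 0.59 in SKOV3. It was thus low in the same cell line as UQCRH, 9.72-fold lower in the SKOV3 than in the HeyC2 control (95% counting interval 7.82 to 12.3). Of the 12 genes within 300 kb (any overlap) with at least 1 FPKM in a control library, LRRC41 and UQCRH were the 2 whose SKOV3 control level was under 20% of the HeyC2 level. UQCRH, around which the window was placed for its low level, is counted among them. LURAP1, FAAH and DMBX1 were at 0.21 FPKM or less in the HeyC2 control and entered only through SKOV3, so they could not fall under 20%. The share of all genes under this cut is not given here. The flanking genes RAD54L and NSUN4 were at 15.1 and 8.43 FPKM in the SKOV3 control, against 2.73 and 7.30 in the HeyC2 control. ATPAF1, another of the 35 genes, starts 370.2 kb away and was at 40.9 FPKM in the SKOV3 control.

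**Figure D3:**
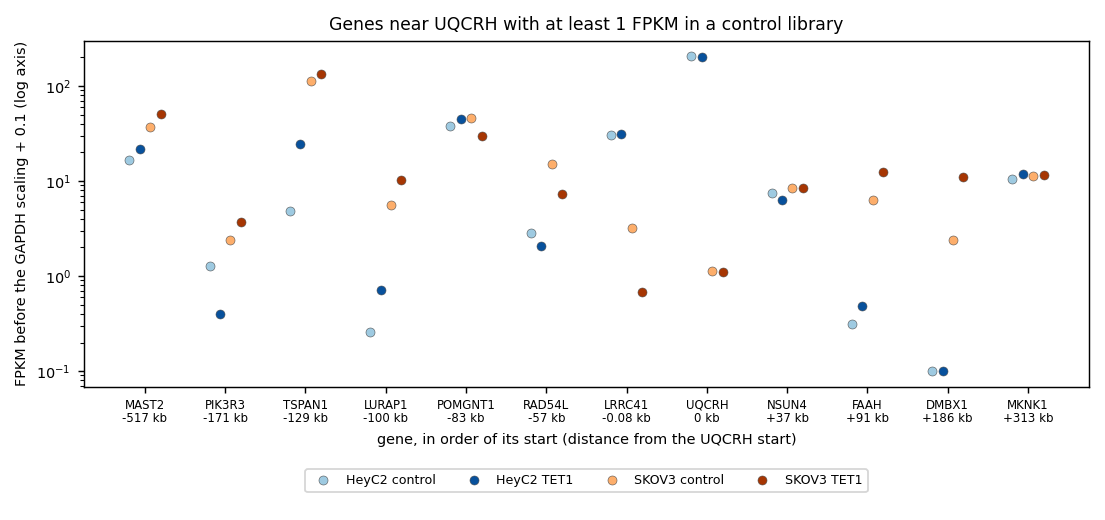
FPKM before the GAPDH scaling, plus 0.1, on a log axis, for the genes near UQCRH that had at least 1 FPKM in a control library, ordered by the distance of their start from that of UQCRH, with 1 point per library. LRRC41 and UQCRH are low in both SKOV3 libraries and high in both HeyC2 libraries, whereas NSUN4 and RAD54L on either side are not low in SKOV3.

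The stretch between the starts of LRRC41 and UQCRH is shown because both genes had low levels in SKOV3. It is the RefSeq sequence of GRCh38.p14, chr1:46303617-46303697, plus strand, 81 bases with a GC content of 59.3%. The capitals mark the reverse complement of the ETS core CCGGAAGT, which 4.44% of 27305 promoters hold on either strand.
LRRC41 to UQCRH: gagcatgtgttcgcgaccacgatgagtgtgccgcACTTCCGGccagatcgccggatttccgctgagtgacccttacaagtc
It is the reference sequence and holds no information on the state of this region in SKOV3. DNA copy number and methylation at this site were not analysed here, and their part in the low levels was not tested.

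In ATP synthase, the catalytic part F1 contains the alpha and beta subunits ATP5A1 and ATP5B, which carry the nucleotide sites. ATP5B was at 269 and 193 FPKM in HeyC2 and at 442 and 529 in SKOV3. ATP5A1 was at 127 and 118 FPKM in HeyC2 and at 211 and 286 in SKOV3. Both were lower in TET1 in HeyC2, with relative log2 changes of -0.54 for ATP5B and -0.15 for ATP5A1, and higher in SKOV3, with 0.07 and 0.24. Relative to genes of like level the SKOV3 values were 0.44 and 0.62, so that ATP5A1 passed 1.5-fold under that centring. ATP5A1 was at 47.0% of ATP5B in the HeyC2 control and 61.3% in HeyC2 TET1, and at 47.9% and 54.2% in SKOV3.

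The central stalk of F1 turns inside the alpha and beta subunits. Its gamma subunit ATP5C1 was at 102 and 86.0 FPKM in HeyC2 and at 135 and 142 in SKOV3, and its delta subunit ATP5D at 128 and 138 in HeyC2 and at 155 and 127 in SKOV3. ATP5E, the epsilon subunit, was the most abundant of the ATP synthase genes in HeyC2, at 329 FPKM in the control and 384 in TET1, and was at 199 and 194 in SKOV3. Its near-identical copy ATP5EP2 was at 0.64 FPKM in the HeyC2 control, listed at 0 in HeyC2 TET1, and at 4.83 and 11.2 in SKOV3. None of the stalk genes reached 1.5-fold, and the farthest was ATP5D in SKOV3 at -0.48.

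The c subunit of the rotating ring is made from 3 genes, ATP5G1, ATP5G2 and ATP5G3, whose products share the mature protein and differ in the leader that is removed on import. ATP5G1 (GRCh37, chromosome 17, 46970127 to 46973233) was at 142 and 108 FPKM in HeyC2 and at 197 and 98.4 in SKOV3. It was lower in TET1 in both lines. Its relative log2 change was -0.45 in HeyC2 and -1.19 in SKOV3, the lowest of the 35 genes there, and the counting error was about 0.10 in each line. In SKOV3 it was past 1.5-fold under all 12 settings, between -1.23 and -0.81.

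ATP5G2 was at 189 and 182 FPKM in HeyC2 and at 165 and 199.8 in SKOV3, and ATP5G3, the lowest ATP synthase subunit in all 4 libraries, was at 26.8 and 19.8 in HeyC2 and at 33.1 and 34.4 in SKOV3. Within the c subunit mRNA of a library, ATP5G1 made up 49.9% in control SKOV3 cells and 29.6% in SKOV3 TET1, while ATP5G2 went from 41.7% to 60.1%. In HeyC2, ATP5G1 made up 39.7% in the control and 34.9% in TET1. The summed level of the 3 genes was 358 and 310.5 FPKM in HeyC2 and 395 and 333 in SKOV3. Per ATP5B, this sum went from 1.33 to 1.61 in HeyC2 and from 0.89 to 0.63 in SKOV3.

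**Figure D4:**
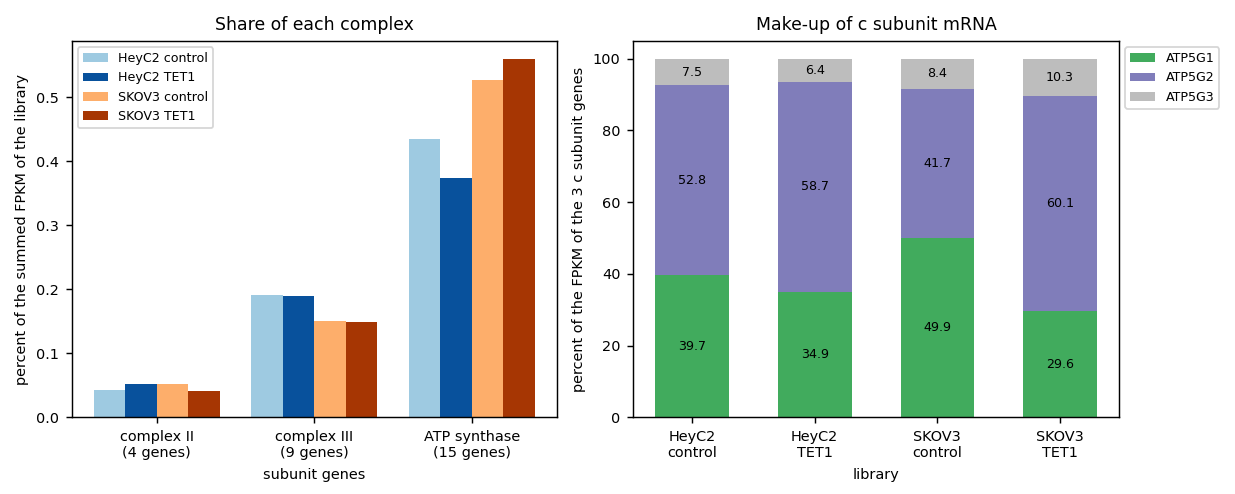
Left, subunit genes of each complex as a percent of the summed FPKM of the library, 1 bar per library, from 0. Right, percent of the FPKM of the 3 c subunit genes held by ATP5G1, ATP5G2 and ATP5G3. In SKOV3 the share of ATP5G1 is 49.9% in the control and 29.6% in TET1, and complex II takes 0.0528% and 0.0411% of all FPKM.

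The peripheral stalk holds the alpha and beta subunits still, and the small Fo subunits e, f and g take part in dimer formation. In HeyC2, ATP5J2, the f subunit (GRCh37, chromosome 7, 99046098 to 99063809), was at 107 FPKM in the control and 53.6 in TET1, and in SKOV3 at 129 and 127. Its relative log2 change of -1.04 in HeyC2 was the lowest of the 35 genes, with a counting error of 0.17, and was past 1.5-fold under all 12 settings. In SKOV3 it was -0.22. The read-through gene ATP5J2-PTCD1, which overlaps it, was listed at 0 in 3 libraries and was at 0.34 FPKM in SKOV3 TET1.

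ATP5J, coupling factor 6 of the peripheral stalk, was at 49.3 and 33.6 FPKM in HeyC2 and at 65.0 and 61.2 in SKOV3. ATP5I, the e subunit, was at 102 and 72.3 FPKM in HeyC2 and at 178 and 196 in SKOV3. In HeyC2 their relative log2 changes were -0.60 and -0.54, of which that of ATP5J was just past 1.5-fold and was past it in 6 of 12 settings. The g subunit ATP5L was at 56.2 and 55.9 FPKM in HeyC2 and at 119 and 95.6 in SKOV3, where its change was -0.50. ATP5F1, subunit b, was at 62.8 and 52.4 in HeyC2 and at 63.4 and 53.5 in SKOV3, and was lower in both lines, at -0.31 and -0.43. ATP5H, subunit d, was at 272 and 252 in HeyC2 and at 247 and 255 in SKOV3. ATP5O, which joins the stalk to F1, was at 138 and 145 in HeyC2 and at 153 and 152 in SKOV3. Of these 7 genes, 6 lay below the all-gene median in HeyC2 and all 7 in SKOV3. Against genes of like level 1 of 7 lay above in HeyC2 and 5 of 7 in SKOV3.

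The factors that act on ATP synthase without being part of its core were less abundant than most subunits, apart from the inhibitor. ATPAF1, which chaperones the beta subunit, was at 12.5 and 17.3 FPKM in HeyC2 and at 40.9 and 35.8 in SKOV3, with relative log2 changes of 0.38 and -0.38. ATPAF2, which chaperones the alpha subunit, was at 14.3 and 19.0 in HeyC2 and at 8.06 and 11.4 in SKOV3, with 0.32 and 0.26. ATPIF1, which blocks the reverse reaction of ATP synthase, was at 147 and 149 in HeyC2 and at 244 and 201 in SKOV3. Relative to ATP5B within a library, ATPIF1 was close in both controls, at 54.7% in HeyC2 and 55.2% in SKOV3, and differed in the TET1 libraries, at 77.4% and 38.0%. The change in HeyC2 came with the lower ATP5B level, since ATPIF1 itself had a relative change of -0.04 there, and in SKOV3 ATPIF1 was lower and ATP5B higher in FPKM.

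As a share of all FPKM in the library, the 4 complex II subunit genes took 0.0436% in the HeyC2 control and 0.0520% in HeyC2 TET1, and 0.0528% and 0.0411% in SKOV3. The 9 complex III subunit genes took 0.191% and 0.190% in HeyC2 and 0.151% and 0.1496% in SKOV3. The 15 ATP synthase subunit genes took 0.435% and 0.375% in HeyC2 and 0.527% and 0.560% in SKOV3. The ratio of the TET1 to the control share was thus 0.99 for complex III in both lines, and 1.19 and 0.78 for complex II and 0.86 and 1.06 for ATP synthase.

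Between the control libraries, taken from separately made tables, 6 of the 35 genes were at least 1.5-fold higher in HeyC2 and 5 at least 1.5-fold lower, beside 29% and 28.6% of 12488 genes. Apart from UQCRH, the higher ones were UQCRC1 (1.03 relative log2), UQCRB (0.97), TTC19 (0.75), ATP5E (0.99) and ATPAF2 (1.03). The lower ones were ATPAF1 (-1.36), SDHAF1 (-0.88), UQCRQ (-0.80), ATP5L (-0.80) and UQCR10 (-0.67). The SDH subunits were between -0.20 and 0.18. The share of the 35 genes past 1.5-fold was thus no larger than that of all genes, and with 6.93 UQCRH was higher than 99.9% of them.

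The other genes of the pathway were described with lists of general knowledge. Their counts stand beside 12.5% higher and 9.17% lower among all genes tested in HeyC2, and 20.7% and 18.2% in SKOV3. Of 13 further factors of the same complexes that were tested, 1 was at least 1.5-fold higher in HeyC2 and 1 lower, and in SKOV3 0 were higher and 4 lower, with medians of 0.00 and -0.35. Of the 37 complex I subunits, 0 were higher and 5 lower in HeyC2 and 1 higher and 6 lower in SKOV3, with medians of -0.25 and -0.28. Of the 11 complex IV subunits, 0 were higher and 0 lower in HeyC2 and 0 higher and 1 lower in SKOV3, with medians of -0.18 and -0.16. Relative to genes of like level, the SKOV3 medians were 0.02 for complex I, with 19 of 37 genes above, and 0.23 for complex IV, with 10 of 11 above, so both turned sign. The HeyC2 medians were then -0.20 and -0.11. In HeyC2 the ATP synthase subunits (-0.30) were thus near complex I, and the complex II subunits (0.12) lay above both complexes. In SKOV3 the complex II subunits lay below the other complexes under both centrings (-0.68 and -0.37). These are descriptions of single libraries, and the differences between lists were not tested.

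Among the carriers that serve ATP synthase (phosphate and ADP/ATP carriers, VDACs) and cytochrome c, 1 of 7 genes was at least 1.5-fold higher in HeyC2 and 2 were lower. In SKOV3 0 of 8 were higher and 6 were lower. Of all genes tested, 12.5% were higher and 9.17% lower in HeyC2, and 20.7% and 18.2% in SKOV3. The median of the carriers in SKOV3 was -0.71, and -0.33 relative to genes of like level. In HeyC2 it was -0.46 and -0.41. SLC25A5, an ADP/ATP carrier, was at 286 and 168 FPKM in HeyC2 and at 308 and 199.6 in SKOV3. Its relative log2 changes were -0.82 and -0.81, and it was the carrier past 1.5-fold the same way in both lines under all-gene centring. NDUFA7 of complex I did the same under that centring, at 33.5 and 22.5 FPKM in HeyC2 and at 61.8 and 39.5 in SKOV3, with -0.61 and -0.82. Values of SLC25A5 and NDUFA7 relative to genes of like level are not given here, so their calls in SKOV3 may depend on the centring. Of 12 proliferation genes, 10 were at least 1.5-fold lower in HeyC2 TET1 and 11 in SKOV3 TET1, with medians of -1.33 and -1.25. Those lower in both lines were MKI67, TOP2A, CCNB1, CCNA2, CDK1, BUB1, AURKA, PLK1 and RRM2. PCNA, the sliding clamp of DNA replication, was at least 1.5-fold higher in HeyC2, at 57.1 and 97.3 FPKM (0.70 relative log2), and was at 208 and 107 in SKOV3 (-1.14). The part of these 12 genes in the values of the respiratory genes was not tested.

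RefSeq promoters of GRCh38.p14 (250 bases before to 50 after the gene start) were matched for 28 of the 35 genes. Nuclear respiratory factor 1 (NRF1) is a transcription factor known for binding promoters of respiratory chain genes. Its core GCATGCGC was found on either strand in 7 of the 28 promoters (25%), beside 3.27% of all 27305 promoters. The core was not found in the other 21 promoters. All 27305 promoters were taken whatever the level of their genes. A share among promoters of expressed genes is not given for any of the 4 motifs searched. The windows of the 7 genes are shown because the NRF1 core was the most frequent of these motifs. Each has 30 bases on the strand of its gene, with the core or its reverse complement in capitals.
SDHB, chr1:17054214-17054243, minus strand: aagccaaatggGCATGCGCcgctactgcgc
SDHD, chr11:112086754-112086783, plus strand: gctgtgtttgcGCATGCGCgacgggtgtgc
SDHAF2, chr11:61430017-61430046, plus strand: cgccacttccgGCATGCGCagggacgcacc
ATP5C1, chr10:7788146-7788175, plus strand: ggagcttcggcGCATGCGCgctgaggcctg
ATP5G2, chr12:53676105-53676134, minus strand: gcccgggtcacGCATGCGCtgagccttcct
ATP5I, chr4:674336-674365, minus strand: cgccgctgacgGCGCATGCgtgcgcccagc
ATP5J, chr21:25735156-25735185, minus strand: ccactcaaagaGCGCATGCgtacagagcaa
The relative log2 changes of these 7 genes ran from -0.60 to 0.63 in HeyC2 (median -0.14) and from -0.90 to 0.08 in SKOV3 (median -0.28). Those of the 21 genes without the core ran from -0.45 to 0.79 (median -0.04) and from -1.19 to 0.47 (median -0.21). Genes without a matched promoter are in neither group, among them ATP5J2, which at -1.04 was the lowest of the 35 genes in HeyC2. The part of the core in these changes was not tested.

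The ETS core CCGGAAGT was found in 6 of the 28 promoters (21.4%, beside 4.44% of all), those of SDHD, SDHAF2, UQCRH, UQCRQ, UQCR11 and ATP5H. The YY1 core AAGATGGCG was found in 4 (14.3%, beside 1.85%), those of SDHB, UQCRC1, ATP5J and ATPAF2, and the ERR core TCAAGGTCA in 1 (3.57%, beside 0.359%), that of SDHD. A match of letters is a description of the reference and no measurement of binding.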

How the data were processed

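RNA sequencing data of HeyC2 and SKOV3 cells were used, with 1 library per condition and cell line. The authors prepared paired-end (2 × 150 bp) TruSeq libraries, aligned them to hg19 with Bowtie2 2.2.6 and quantified them with RSEM 1.2.17, per the labels and the submitters' processing notes, and deposited FPKM in 1 table per cell line. The annotation, filters and read totals are not given in the sources used here. The deposited FPKM of each TET1 library lie on a grid of 0.01 times a constant (100% of 1220 and 2637 distinct values below 40 FPKM), and GAPDH equals its control value. This constant was divided out, which keeps the pseudocount of 1 FPKM equal in both libraries. Genes with a mean of at least 1 FPKM over both libraries of a comparison were kept, and the median log2 change of all of them (0.06 in HeyC2 and 0.19 in SKOV3) was subtracted. Depth was estimated from the FPKM steps of low genes with transcript lengths less 150 bases, and the fragment numbers and their counting errors are approximate. Coordinates and lengths came from GENCODE v44 on GRCh37, the build of hg19, by current or older symbol (23921 of 26506 matched, and all 35 genes described). Promoters came from RefSeq on GRCh38.p14 and are not set beside GRCh37 coordinates.

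Since each condition has 1 library, conditions were compared without tests or p-values. The genes described and the lists were chosen with earlier results of these data known. All 35 genes are named. Levels in all 4 libraries were planned for SDH subunits, c subunit genes, ATPIF1, the extremes of complex III and ATP synthase, and any gene past 1.5-fold, and the others were added. Of other genes, TET1, GAPDH, copies of the 35 genes, and genes past 1.5-fold the same way in both lines were to be named. LRRC41, its neighbours and the cell type markers were named after their values were seen. The alternatives were the FPKM as deposited, TPM, upper-quartile scaling, pseudocounts of 0.1 and 0.01, no filter, a mean of at least 5 FPKM, centring on genes of at least 20 FPKM, on genes of like level (running median) or not at all, correction for transcript length and GC content in 20 bins each, subunits only, shares without the 10 largest genes, and folds of 1.2 and 2. The recovery of the constant and the calling of large planted changes in abundant genes were tested on simulated data. The depth, fragment numbers, counting errors and intervals, and changes near 1.5-fold were not tested in this way. Python 3.11.15 was used with numpy 2.4.6, pandas 2.3.3, scipy 1.17.1 and matplotlib 3.10.9.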

Additional observations from a re-analysis of the deposited data

Results flagged for a closer look

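In 3 of the 35 genes TET1 exceeded the control by 1.2-fold or more in HeyC2 and fell short of it by as much in SKOV3, relative to the all-gene median of each line. SDHD, an anchor of complex II, had relative log2 changes of 0.63 in HeyC2 and -0.78 in SKOV3. SDHAF2, which attaches FAD to SDHA, had 0.62 and -0.57. ATPAF1, the chaperone of the beta subunit, had 0.38 and -0.38. Relative to genes of like level, the SKOV3 value of ATPAF1 was -0.19, short of 1.2-fold. Those of SDHD and SDHAF2 were -0.48 and -0.33, still past it. The share of all genes that meet this 1.2-fold rule is not given here, so whether 3 of 35 is many or few was not examined. With 1 library per condition, the difference between the cell lines was not tested for any of the 3 genes.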

How the results depend on the processing

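No paired analysis was possible because each condition has 1 library and the labels carry no replicate numbers, and no library could be left out. A median or share was counted as moved when it shifted by over 0.1 on the log2 scale, and a count when it shifted by over 1.5 times. The median relative log2 change of the 35 genes in HeyC2 (-0.06) was 0.076 with the FPKM as deposited. On genes of like level it was 0.0013, which does not count as moved. Its sign thus depends on the scaling and the centring. In SKOV3 (-0.21) it was 0.037 when centred on genes of at least 20 FPKM, 0.035 on genes of like level, -0.015 with no centring and -0.10 after correction for length and GC content. Between the controls (-0.03) it was -0.30 with no centring. Without UQCRH, a setting added after the data were examined, no median moved. In HeyC2 the 3 genes past 1.5-fold higher were 1 over subunits only, 5 at 1.2-fold and 0 at 2-fold. The 2 lower ones were 9 at 1.2-fold and 1 at 2-fold, as deposited, at a mean of 5 FPKM, under each other centring, with no centring and after the length and GC correction. In SKOV3 the 0 higher ones were 1 at 1.2-fold, 1 on genes of at least 20 FPKM, 2 on genes of like level and 1 with no centring. The 6 lower ones were 15 at 1.2-fold, 1 at 2-fold, 2 on genes of at least 20 FPKM, 3 on genes of like level and 3 with no centring. Without the 10 largest genes of each library, the shares in the HeyC2 control and TET1 were 0.0483% and 0.0571% for complex II, 0.212% and 0.209% for complex III and 0.482% and 0.411% for ATP synthase. The cause of these shifts was not tested. Of 1118 values of single genes under an alternative, 900 moved by 0.1 or less, 218 moved by more, and 0 of those past 1.5-fold changed sign. At the estimated depth, counting error was about 0.24 (log2) for SDHAF1 in HeyC2, and the roughly 3 fragments of UQCRH give no usable change within SKOV3.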

Other observations

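UQCC3, a factor of complex III assembly outside the 35 genes, had the pattern of SDHD and SDHAF2, at 6.22 (control) and 14.5 FPKM (TET1) in HeyC2 and at 20.6 and 13.7 in SKOV3, with relative log2 changes of 1.04 and -0.75. It was singled out after its values were seen. The copies SDHAP1 and SDHAP2 of SDHA had relative log2 changes of 1.44 and 1.30 in HeyC2 and of -0.25 and 0.58 in SKOV3, beside 0.18 and -0.59 for SDHA itself. ATP5L2, a copy of ATP5L, was listed at 0 throughout. LRRC41, the neighbour of UQCRH, was 5.26-fold higher in the SKOV3 control than in SKOV3 TET1 (95% counting interval 3.09 to 10.04), on about 86 and 15 fragments.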
